A study of Mus musculus with 8 samples.

Results

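Pparg and Olr1 were among the genes with the strongest gain of signal in mouse embryoid bodies labelled Bmi1, and 8 genes that work beside them were followed to see whether partners from fat cells or placenta moved too. The 10 genes were the nuclear receptors Pparg, Ppara, Ppard and Rxra, the transcription factor Cebpa, the lipid uptake genes Fabp4, Cd36, Lpl and Olr1, and the lipid droplet gene Plin2. They were picked by name out of 18193 genes that had a probe set carrying exactly 1 gene symbol, and 21 such probe sets belonged to them. Pparg and Olr1 were picked because of their difference between embryoid bodies labelled Bmi1 and embryoid bodies with the empty vector, so their values in embryoid bodies are given as a description with no test. The other 8 were picked for their role.

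The 8 arrays came from CCE, an embryonic stem (ES) cell line of the mouse strain 129/Sv kept with leukemia inhibitory factor. Cells were infected with a lentivirus carrying mouse Bmi1 cDNA or nothing further, and eGFP-positive cells were sorted. There were 2 arrays of embryoid bodies labelled Bmi1 and 2 of vector embryoid bodies, both harvested on day 10 of aggregation in suspension, 2 of ES cells labelled Bmi1, and 2 of control ES cells, of which 1 was untreated and 1 carried the empty vector. All 4 groups come from the same line, and both embryoid body groups went through the infection and the eGFP sort.

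Peroxisome proliferator-activated receptors bind fatty acids and their derivatives and pair with a retinoid X receptor such as Rxra, and the pair acts on genes of lipid uptake, storage and burning. Pparg is required for the formation of fat cells, where it works together with Cebpa, and mice without Pparg also fail to form a working placenta. Fabp4, Cd36, Lpl and Plin2 are known targets of these receptors in fat cells or macrophages. Olr1 encodes a receptor for oxidised low-density lipoprotein known from endothelial cells and macrophages.

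The stretches of DNA just before the start sites of Pparg, Olr1 and of the uptake and droplet genes Cd36 and Plin2 are shown. Sites further from the start or within the genes were not searched. The stretches are 250 bases from RefSeq on build GRCm38.p6, printed on the strand of the gene. Capitals mark the best match to the DR1 motif of these receptor pairs where it had at most 3 mismatches, and exact copies of the half-site. The DR1 motif searched was AGGTCANAGGTCA, compared at the 12 letters that are not N, and the half-site was AGGTCA, both on both strands, and a half-site may lie inside a DR1 match.
Pparg, start 1, chr6:115360894-115361143 (+): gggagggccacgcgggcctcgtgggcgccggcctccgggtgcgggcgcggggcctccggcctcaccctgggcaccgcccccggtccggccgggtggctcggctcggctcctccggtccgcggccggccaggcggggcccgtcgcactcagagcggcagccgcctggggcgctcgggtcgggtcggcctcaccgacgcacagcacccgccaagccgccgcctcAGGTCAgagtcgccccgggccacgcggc
Pparg, start 2, chr6:115362099-115362348 (+): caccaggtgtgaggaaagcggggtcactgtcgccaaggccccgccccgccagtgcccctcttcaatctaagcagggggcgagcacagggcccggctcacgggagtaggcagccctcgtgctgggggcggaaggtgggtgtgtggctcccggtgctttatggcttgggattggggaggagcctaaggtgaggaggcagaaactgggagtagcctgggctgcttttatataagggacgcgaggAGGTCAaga
Pparg, start 3, chr6:115421816-115422065 (+): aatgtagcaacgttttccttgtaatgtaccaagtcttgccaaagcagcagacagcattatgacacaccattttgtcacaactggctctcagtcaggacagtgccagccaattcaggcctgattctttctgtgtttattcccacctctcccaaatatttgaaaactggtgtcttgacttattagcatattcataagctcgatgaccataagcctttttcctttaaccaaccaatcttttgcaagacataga
Olr1, chr6:129507166-129507415 (-): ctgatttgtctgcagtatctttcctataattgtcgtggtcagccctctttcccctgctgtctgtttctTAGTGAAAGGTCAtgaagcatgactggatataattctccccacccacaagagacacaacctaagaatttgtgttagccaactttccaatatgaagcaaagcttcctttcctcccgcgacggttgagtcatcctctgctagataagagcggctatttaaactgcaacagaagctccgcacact
Plin2, chr4:86670060-86670309 (-): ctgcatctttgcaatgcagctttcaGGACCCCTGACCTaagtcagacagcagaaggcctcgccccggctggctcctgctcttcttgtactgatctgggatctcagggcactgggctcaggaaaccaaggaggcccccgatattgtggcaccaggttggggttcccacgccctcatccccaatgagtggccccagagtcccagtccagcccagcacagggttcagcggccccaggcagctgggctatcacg
Cd36, chr5:17835897-17836146 (-): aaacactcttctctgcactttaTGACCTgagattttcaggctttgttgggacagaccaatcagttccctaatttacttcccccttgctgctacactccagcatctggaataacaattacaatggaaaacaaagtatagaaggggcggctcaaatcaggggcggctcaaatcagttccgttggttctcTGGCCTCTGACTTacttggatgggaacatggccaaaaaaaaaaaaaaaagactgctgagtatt

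The best DR1 match had 2 mismatches before Plin2 and before Cd36, 3 before Olr1 and 4 before each start of Pparg. In Plin2 and Olr1 the exact half-site is part of the DR1 match, and in Cd36 it stands apart from it. In windows not printed, the best match had 2 mismatches before start 2 of Rxra, 3 before Cebpa and 4 before Ppara. It had 5 before Ppard and before start 1 of Rxra. Of the windows not printed, only that before start 2 of Rxra held exact half-sites, 2 of them. Of all 32851 windows of this length, 3.24% held a match with at most 2 mismatches, 21.3% one with at most 3 and 74.5% one with at most 4. An exact half-site was in 14.0% of them and in 6 of the 11 windows of the 8 members that the RefSeq table held. These are matches of letters, and no binding was measured. No window was printed for Fabp4 and Lpl.

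Values are log2 signals made with RMA, and a difference of 1 on this scale is a 2-fold difference. By the distribution of their values the arrays formed 3 sets, with replicate 1 of both embryoid body groups in 1 set, replicate 2 of both in another and the 4 ES cell arrays in a set of their own. The mean distance between the sorted values of a pair of arrays was 0.0099 to 0.0325 within sets and 0.189 to 0.442 across sets. A comparison of embryoid bodies with ES cells is therefore also a comparison of sets, and these cannot be told apart. A second fit, with a block for the embryoid body sets, is given where it alters a call. The Bmi1 probe set read 7.48 and 8.51 in embryoid bodies labelled Bmi1, compared with 9.35 and 9.67 in embryoid bodies with the vector. It read 5.68 and 6.28 in ES cells labelled Bmi1, against 7.41 and 7.74 in control ES cells. This goes against the label, so the groups are called labelled Bmi1 throughout, and whether the probes lie within the cDNA of the virus was not analysed here. Pou5f1, a pluripotency factor, read 7.44 to 9.43 in the 4 embryoid body arrays and 13.3 to 13.5 in the 4 ES cell arrays. With so few arrays every value has limited precision. The labels do not say that replicates were separate cultures, so p-values reflect how these arrays scatter, which may be technical.

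Pparg was high in embryoid bodies labelled Bmi1. Its probe set 1420715_a_at read 8.37 and 8.28 there, against 5.67 and 6.40 in embryoid bodies with the vector. Both arrays labelled Bmi1 were alike and stood above both vector arrays, which lay near the median probe set of their arrays. The means were 8.33 ± 0.07 and 6.04 ± 0.52 (SD, n = 2 each), a difference of 2.29 or 4.89-fold, and it was 2.70 within the replicate 1 set and 1.88 within the replicate 2 set. In ES cells Pparg read 3.76 and 3.67 in those labelled Bmi1 and 3.88 and 3.68 in controls, well below the array medians of 5.57 to 5.61. Pparg passed the filter on dim genes, which asked for a signal above the array's median on at least 2 arrays, through embryoid body arrays alone.

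Olr1 followed the same order. Its probe set 1419534_at read 6.37 and 6.73 in embryoid bodies labelled Bmi1, compared with 4.55 and 4.70 in embryoid bodies with the vector, so the groups did not overlap. The means were 6.55 ± 0.25 and 4.63 ± 0.11 (SD, n = 2 each), a difference of 1.92 or 3.79-fold, with 1.83 and 2.02 within the sets. Only these arrays labelled Bmi1 lay above their array median, so Olr1 passed the filter on dim genes through them alone. In ES cells Olr1 read 2.93 and 3.13 in those labelled Bmi1 and 3.03 and 2.90 in controls. In bulk samples, fewer cells of a type and less RNA per cell cannot be told apart.

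By the size of this difference Pparg was the 17th and Olr1 the 40th of 12982 genes tested. Both were picked by name, so no threshold on the difference separates them from the other genes.

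**Figure D1:**
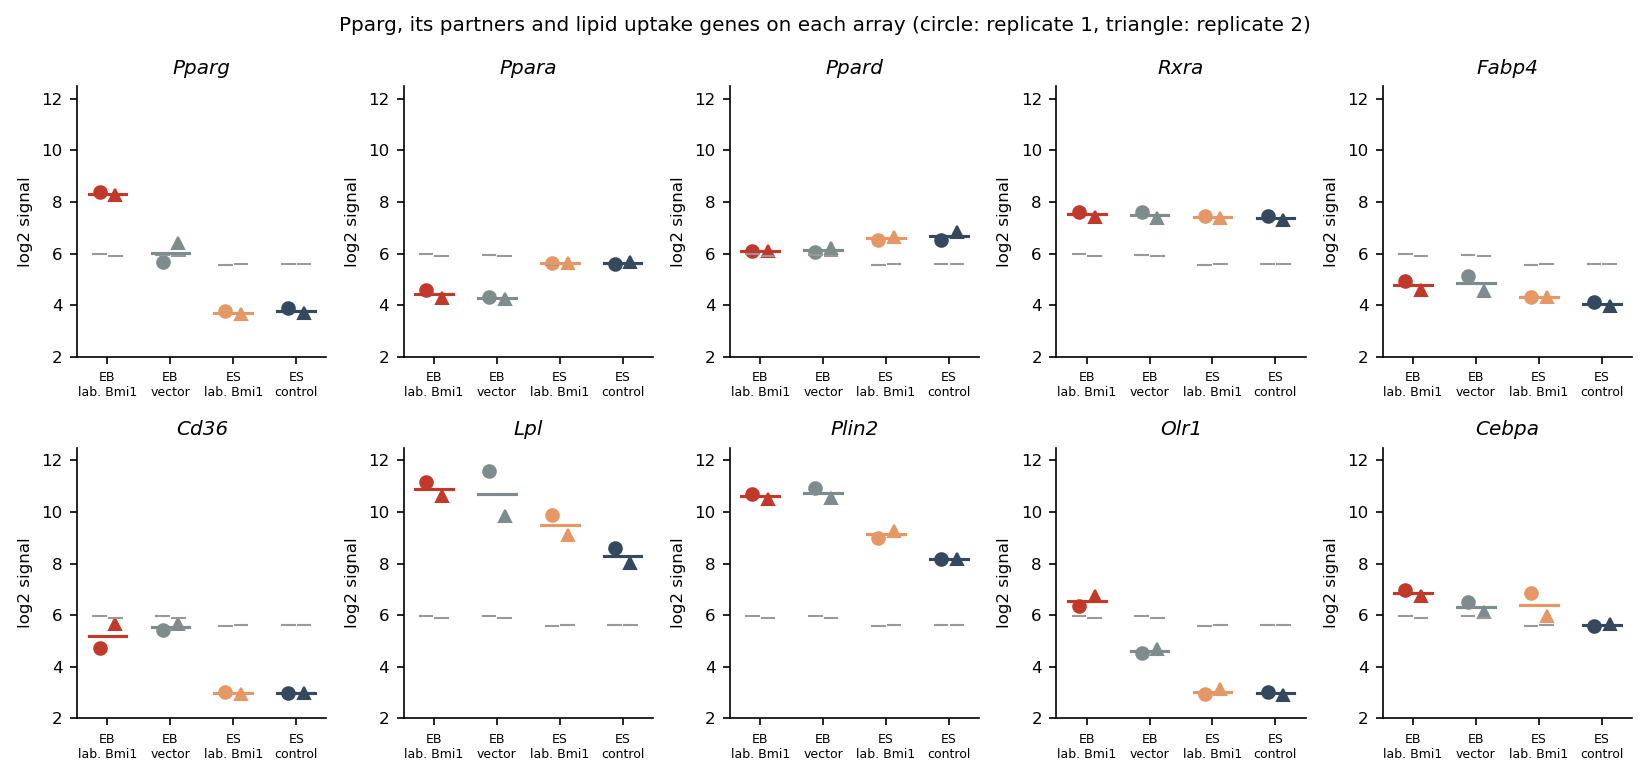
Log2 signal of the 10 genes on each of the 8 arrays, 1 panel a gene, with embryoid bodies (EB) and ES cells labelled Bmi1 each left of their vector or control group. Circles are replicate 1 or the untreated ES cells, triangles replicate 2 or the empty vector ES cells, coloured bars the group means, and grey ticks the median probe set of each array. Pparg and Olr1 stand apart in embryoid bodies labelled Bmi1, at 8.28 to 8.37 and 6.37 to 6.73, while the other panels show embryoid body groups that overlap or, for Cebpa, lie close.

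The other 3 receptors gave nearly the same signal in both embryoid body groups. Rxra, a partner with which Pparg binds DNA, read 7.63 and 7.44 in embryoid bodies labelled Bmi1, compared with 7.61 and 7.39 in embryoid bodies with the vector. The difference was 0.04 ± 0.17 (SE), with a 95% interval of 0.775-fold to 1.36-fold. Ppard, the receptor present in most tissues, read 6.11 and 6.11 in embryoid bodies labelled Bmi1, compared with 6.05 and 6.23 in embryoid bodies with the vector. Its difference was -0.03 ± 0.18 (SE), with an interval of 0.734-fold to 1.31-fold. Ppara, the receptor of liver and heart that drives fatty acid burning, was below the array median on all 4 embryoid body arrays, at 4.60 and 4.27 in those labelled Bmi1 and 4.33 and 4.24 in vector ones. Its interval ran from 0.833-fold to 1.47-fold. At the brightest probe set of each gene, the groups overlapped for all 3.

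Cebpa, which keeps Pparg switched on in fat cells, was the one partner whose embryoid body groups did not overlap at its brightest probe set. It read 6.96 and 6.75 in embryoid bodies labelled Bmi1, compared with 6.52 and 6.13 in embryoid bodies with the vector. The difference was 0.53 ± 0.31 (SE), and it was 0.44 and 0.62 within the sets. It did not pass the test (adjusted p = 0.825, and 0.313 with the set as a block), and the interval ran from 0.877-fold to 2.38-fold.

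The other uptake and droplet genes had embryoid body groups that overlapped at their brightest probe sets. Plin2, which coats lipid droplets, read 10.71 and 10.52 in embryoid bodies labelled Bmi1, compared with 10.94 and 10.54 in embryoid bodies with the vector, with a difference of -0.12 ± 0.20 (SE) and an interval of 0.662-fold to 1.27-fold. Lpl, the lipase that frees fatty acids from lipoproteins, read 11.16 and 10.63 in embryoid bodies labelled Bmi1, compared with 11.59 and 9.83 in embryoid bodies with the vector. Its vector arrays enclosed both others, the difference was -0.43 in the replicate 1 set and 0.80 in the replicate 2 set, and the interval of 0.448-fold to 2.87-fold was the widest of the 6 partners tested.

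Macrophage markers varied between the vector arrays as well. The summed linear signal of 15 macrophage markers was 3775 and 2939 in embryoid bodies labelled Bmi1, 6318 and 1526 in vector embryoid bodies, and 1196 to 2070 in ES cells. In ES cells this sum is mostly that of the marker Laptm5. Lpl and 10 of the 15 markers were highest in vector replicate 1 and lowest in vector replicate 2 among embryoid bodies, and the other 5 (Csf1r, Cd68, Fcgr1, Mrc1 and Cd163, named after their values were seen) were not. Csf1r, the receptor for macrophage colony-stimulating factor, read 10.33 and 9.53 in embryoid bodies labelled Bmi1, compared with 10.22 and 7.58 in embryoid bodies with the vector. The lysosomal protein Cd68 read 6.49 and 6.78, against 7.29 and 6.93, and the antibody receptor Fcgr1 read 6.31 and 5.96, against 6.999 and 6.09. Of the 15, the scavenger receptor Cd163 was above the array median on no array. The part of macrophages in the Lpl signal was not tested.

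Fabp4 and Cd36, the fatty acid carrier and the fatty acid importer of fat cells and macrophages, were below the array median on all 8 arrays and were not tested. Fabp4 read 4.96 and 4.59 in embryoid bodies labelled Bmi1, compared with 5.14 and 4.56 in embryoid bodies with the vector. Cd36 read 4.74 and 5.64 in embryoid bodies labelled Bmi1, compared with 5.42 and 5.66 in embryoid bodies with the vector. At the brightest probe set of both genes the groups overlapped, at a signal where the array can show little.

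Of the 8 partners, 6 were tested in embryoid bodies and 0 passed limma's test at an adjusted p of 0.05, with or without the block. At an unadjusted p under 0.05 the count was also 0 of 6, beside 917 of all 12982 genes (7.1%). Among all genes 0.139% passed the adjusted test, and 2.09% with the set as a block. Of the 6 tested, 1 had groups that did not overlap, beside 25.2% of all genes tested. The members chosen on this contrast are left out of these counts.

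**Figure D2:**
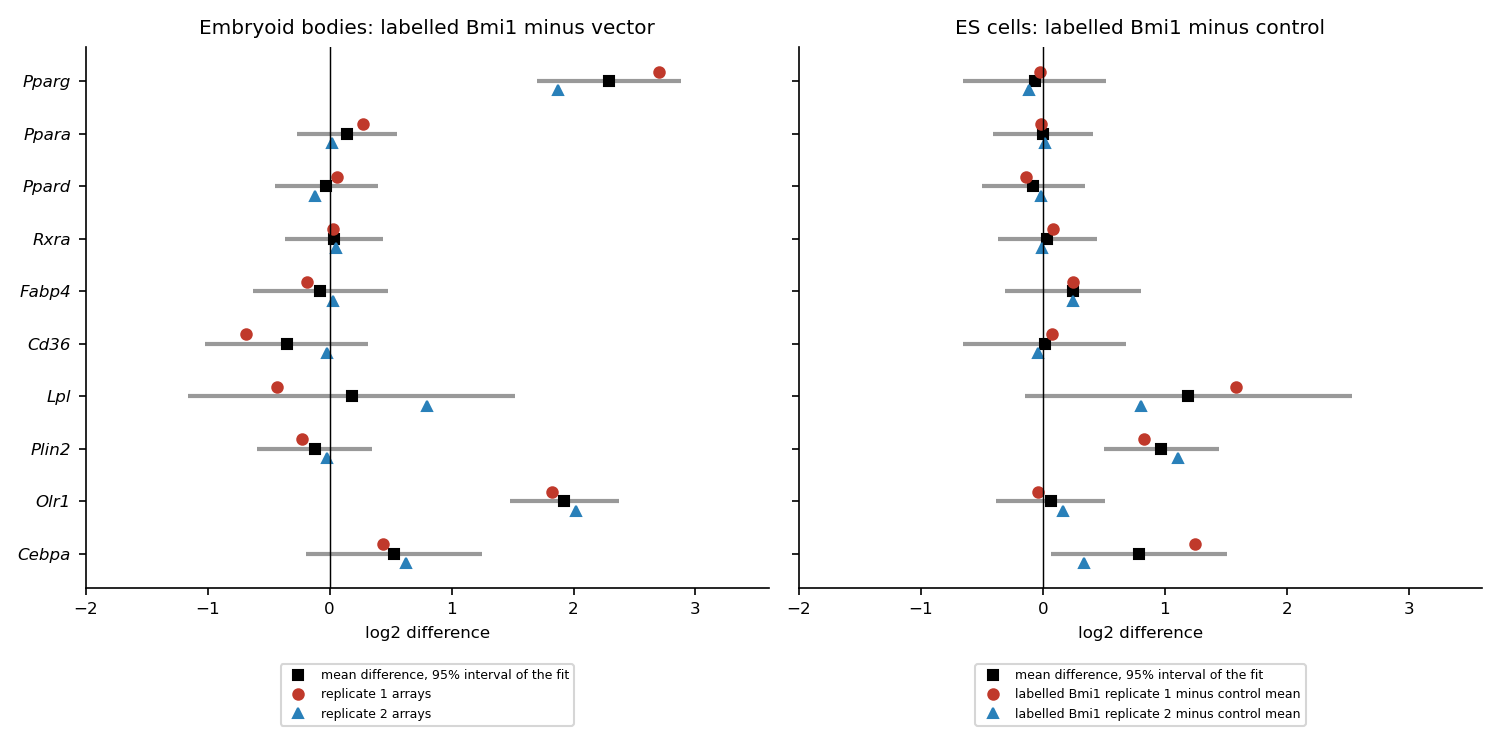
Log2 difference of each gene, labelled Bmi1 minus vector in embryoid bodies (left) and labelled Bmi1 minus control in ES cells (right). Squares are differences of group means with the 95% interval of the fit, and circles and triangles are replicate 1 and 2, set against the vector array of the same set (left) or the control mean (right). In embryoid bodies Pparg and Olr1 lie at 2.29 and 1.92 with the other 8 between -0.35 and 0.53, whereas in ES cells Lpl, Plin2 and Cebpa lie at 1.19, 0.97 and 0.79.

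Several probe sets were available for some members, and each was examined on its own. The second Rxra probe set, 1454773_at, read 7.69 and 7.74 in embryoid bodies labelled Bmi1, compared with 7.52 and 7.57 in embryoid bodies with the vector. These groups did not overlap, and the difference of 0.17 ± 0.19 (SE) did not pass (adjusted p = 1). The second Lpl probe set, 1431056_a_at, gave a difference of -0.09 ± 0.41 (SE). The dimmer probe sets of Cd36 and Fabp4 did not go one way. The Fabp4 probe set 1424155_at gave 0.17, with -0.06 and 0.41 within the sets, and 1451263_a_at gave -0.28. The Cd36 probe set 1450884_at gave 0.03, with -0.24 and 0.29 within the sets. The groups did not overlap and were lower in embryoid bodies labelled Bmi1 for 1451263_a_at and for 1 further probe set of each gene. Of all genes tested, 25.2% had groups without overlap in either direction at their brightest probe set. No such share was taken over dim probe sets, so this is a description. The Cd36 probe set 1423166_at read 3.46 and 3.84 in embryoid bodies labelled Bmi1, compared with 4.36 and 5.05 in embryoid bodies with the vector. The Fabp4 probe set 1417023_a_at read 4.39 and 3.81 in embryoid bodies labelled Bmi1, compared with 5.27 and 4.65 in embryoid bodies with the vector. All these were below the median on every array and were not tested. Pparg, Olr1, Plin2 and Cebpa had 1 probe set each, so no second probe set stands beside them.

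**Figure D3:**
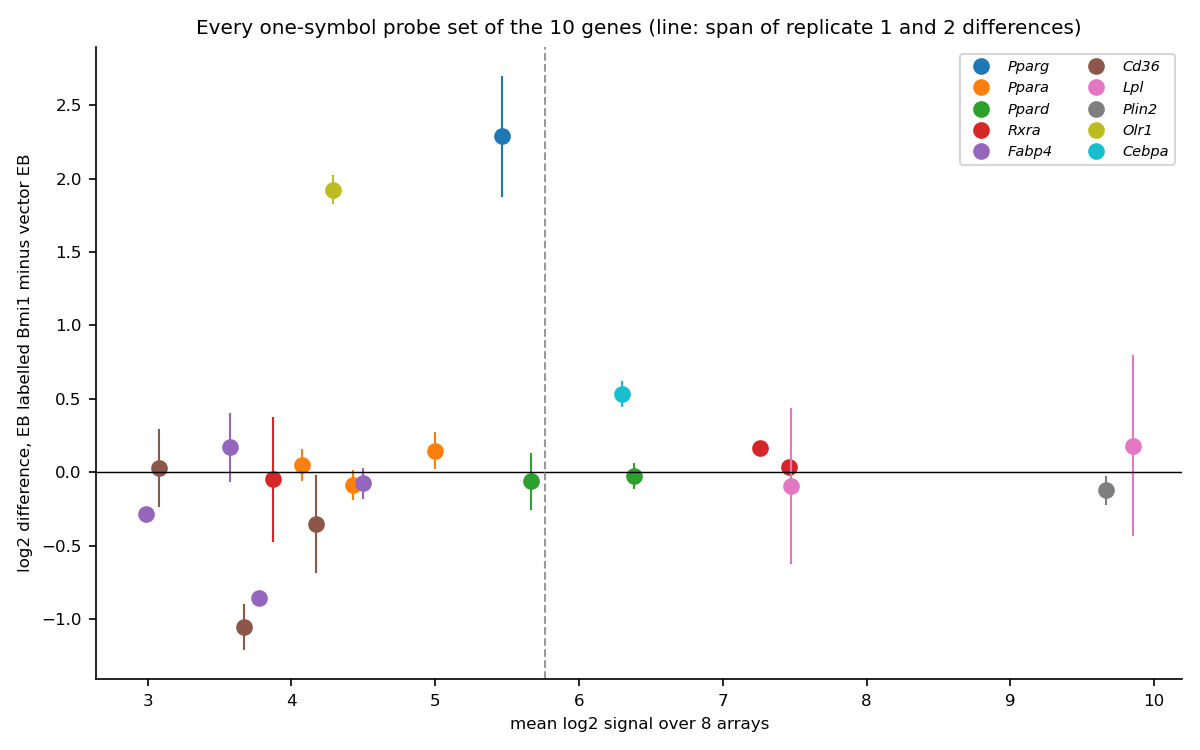
Log2 difference in embryoid bodies, labelled Bmi1 minus vector, for each of the 21 probe sets of the 10 genes, set by its own mean log2 signal over the 8 arrays. Vertical lines span the differences of the replicate 1 and replicate 2 sets, and the dashed line is the mean of the array medians. Signals of different probe sets are not comparable as amounts, and the plot shows that 19 of the 21, all but those of Pparg and Olr1, lie between -1.06 and 0.53, with the lowest of them dim.

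In ES cells 0 members passed without the block. Pparg and Olr1 were below the array median in both groups, with differences of -0.07 ± 0.25 and 0.06 ± 0.19 (SE), while Plin2, Lpl and Cebpa had higher means in ES cells labelled Bmi1. Plin2 read 9.005 and 9.28 in ES cells labelled Bmi1, against 8.17 and 8.18 in control ES cells, and the groups did not overlap. The difference was 0.97 ± 0.20 (SE), or 1.96-fold with an interval of 1.41-fold to 2.72-fold. Its adjusted p was 0.205, and 0.0316 with the block for embryoid body sets, which leaves the ES cell difference as it is and lowers the residual spread. It passed with that block, also where every probe set was tested on its own (adjusted p = 0.0417), and with array weights (adjusted p = 0.00506). In no other fit did it pass.

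Lpl read 9.89 and 9.11 in ES cells labelled Bmi1, against 8.61 and 8.00 in control ES cells, a difference of 1.19 ± 0.57 (SE) that did not pass (adjusted p = 0.927, and 0.209 with the block). Cebpa read 6.86 and 5.95 in ES cells labelled Bmi1, against 5.58 and 5.65 in control ES cells, a difference of 0.79 ± 0.31 (SE, adjusted p = 0.695, and 0.259 with the block). The Cebpa difference was carried mostly by replicate 1 labelled Bmi1, and it was 0.34 without that array. In both genes every array labelled Bmi1 was above every control array. The 15 macrophage markers summed to 1196 and 1379 in ES cells labelled Bmi1, against 1321 and 2070 in control ES cells, and 2 to 3 of them were above the array median on each ES cell array. These sums are mostly that of Laptm5, named after its values were seen. Laptm5 read 9.67 and 9.96 in ES cells labelled Bmi1, against 9.80 and 10.64 in control ES cells. The part of macrophages in the Lpl values was not tested.

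The receptors and the 2 untested carriers differed little in ES cells. Rxra read 7.47 and 7.39 in ES cells labelled Bmi1, against 7.47 and 7.32 in control ES cells. Ppara read 5.62 and 5.66, against 5.61 and 5.68. Ppard read 6.53 and 6.66, against 6.52 and 6.83. These 3 groups overlapped, with intervals of 0.775-fold to 1.36-fold for Rxra, 0.753-fold to 1.33-fold for Ppara and 0.708-fold to 1.27-fold for Ppard. Fabp4 read 4.30 and 4.30 in ES cells labelled Bmi1, against 4.14 and 3.97 in control ES cells, and Cd36 read 3.04 and 2.92, against 2.97 and 2.97, all below the median.

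Of the 10 members, 8 were tested in ES cells and 0 passed, beside 0.0462% of all genes. With the block 1 passed, Plin2, beside 1.66% of all genes. At an unadjusted p under 0.05 it was 2 of 8, Plin2 and Cebpa, beside 817 of 12982 genes (6.3%). Of the 8 tested, 3 had groups that did not overlap (Plin2, Lpl and Cebpa), beside 45.6% of all genes tested. The counts over 8 include Pparg and Olr1, which passed the filter through embryoid body arrays alone and were below the array median in ES cells. All 3 genes without overlap are among the 6 partners tested.

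The difference labelled Bmi1 against control was also compared between embryoid bodies and ES cells. For Plin2 it was -0.12 in embryoid bodies and 0.97 in ES cells, which is -1.09 ± 0.28 (SE) between them, and this did not pass (adjusted p = 0.408, and 0.0612 with the block). For Lpl the corresponding value was -1.01 ± 0.80 (SE). None of the 6 partners tested passed, with or without the block, and 1 of them, Plin2, had an unadjusted p under 0.05. Among all genes 0% passed without the block, with 887 at an unadjusted p under 0.05, and 0.824% with it. Pparg and Olr1 differed by 2.36 and 1.86 between the stages in the same comparison, which restates the choice.

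Plin2 rose between stages in both pairs of groups. In vector embryoid bodies against control ES cells, Plin2 rose by 2.57 ± 0.20 (SE), to 10.94 and 10.54 against 8.17 and 8.18, with an adjusted p of 0.000131. Lpl rose by 2.41 ± 0.57 (SE, adjusted p = 0.00921), and without the empty vector ES cell array the value was 2.10 and did not pass (adjusted p = 0.0602). In embryoid bodies labelled Bmi1 against ES cells labelled Bmi1, Plin2 rose by 1.47 ± 0.20 (SE, adjusted p = 0.000998). There Lpl was higher by 1.39 ± 0.57 (SE) and did not pass (adjusted p = 0.069), but did with the block (0.0124) and without either vector array (0.00938).

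Ppara read 4.24 to 4.60 in the 4 embryoid body arrays and 5.61 to 5.68 in the 4 ES cell arrays. The difference was -1.35 ± 0.17 (SE) in vector embryoid bodies against control ES cells and -1.21 ± 0.17 (SE) in the pair labelled Bmi1. It was above the array median on 3 arrays, all of ES cells, and so entered the test only through the stage where it was higher. The difference is therefore given as a description. Its other 2 probe sets were dim and disagreed with each other, at 0.68 and -0.84 in vector embryoid bodies against control ES cells.

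Ppard fell by 0.54 ± 0.18 (SE, adjusted p = 0.0351) in vector embryoid bodies against control ES cells and by 0.48 ± 0.18 (SE, adjusted p = 0.0496) in the pair labelled Bmi1. Its second probe set, 1425703_at, gave 0.31 and 0.19 in these comparisons, and with the mean of both the values were -0.11 and -0.15 and did not pass (adjusted p = 0.529 and 0.414). Both calls were also lost without certain arrays. For the vector and control pair these were vector replicate 1, either ES cell array labelled Bmi1, or either control ES cell array, and for the pair labelled Bmi1 any array other than the vector ones.

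Rxra gave 0.10 ± 0.17 (SE) in both stage comparisons with its brightest probe set, which turned to -0.22 and -0.24 with median centring. The second Rxra probe set was higher in embryoid bodies, by 0.76 ± 0.19 (SE, adjusted p = 0.013) in vector against control samples and by 0.72 ± 0.19 (SE, adjusted p = 0.0154) in those labelled Bmi1, so the probe sets of this gene disagreed. Cebpa was higher by 0.71 ± 0.31 (SE) in vector embryoid bodies than in control ES cells, and did not pass (adjusted p = 0.0823), but did with the block (0.0487) and without either ES cell array labelled Bmi1 (0.0348). In the pair labelled Bmi1 it differed by 0.45 ± 0.31 (SE, adjusted p = 0.24), and without ES cell replicate 1 labelled Bmi1 by 0.91 (adjusted p = 0.0391).

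Fabp4 and Cd36, untested, read higher in vector embryoid bodies than in control ES cells by 0.79 and 2.58, and in the pair labelled Bmi1 by 0.47 and 2.21. Pparg differed by 2.26 between vector embryoid bodies and control ES cells and by 4.61 in the pair labelled Bmi1, and Olr1 by 1.66 and 3.52, all as a description. The array medians were themselves higher by 0.32 in vector embryoid bodies than in control ES cells and by 0.35 in the pair labelled Bmi1, so each stage difference is lower by that amount relative to the median probe set. Relative to it, Ppara differed by -1.68 and -1.55 and Plin2 was higher by 2.25 and 1.13.

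Without Ppara, 3 of the 5 partners tested passed in vector embryoid bodies against control ES cells, 2 higher (Lpl and Plin2) and 1 lower (Ppard), beside 58.5% of all genes, and with the block 4 passed, beside 74.8%. In the pair labelled Bmi1 2 of 5 passed, 1 higher (Plin2) and 1 lower (Ppard), beside 59.2% of all genes, and with the block 3 passed, beside 74.4%. Ppara adds 1 lower call to each of these counts. None of these shares stands clear of the background. The 2 stage comparisons rest on different arrays, but each shares its arrays with the comparisons within a stage.

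Genes of the same pathways were read from lists drawn up by role. Earlier results of these data were known by then, so the lists are not independent of them. Of 16 coregulators and partners of the receptors with a probe set, 15 were tested in embryoid bodies and 0 passed limma's test, with 3 (20%) at an unadjusted p under 0.05. Beside this and the list counts that follow stand 7.1% of all genes at that unadjusted p and 2.09% that passed with the block. Their median difference was 0.23, beside -0.02 for all genes. Ppargc1b, a coactivator of fatty acid burning, read 7.76 and 7.94 in embryoid bodies labelled Bmi1, compared with 7.15 and 7.003 in embryoid bodies with the vector, a difference of 0.77 ± 0.20 (SE, adjusted p = 0.331). Hdac3, the deacetylase of the corepressor complex, fell with the block only, by 0.58 ± 0.10 (SE, adjusted p = 0.0459, and 0.606 without it). The coactivator Ncoa3 differed by 0.45 ± 0.19 (SE, adjusted p = 0.686).

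Of 18 transcription factors of fat cell formation 17 were tested, 0 passed without the block, 2 had an unadjusted p under 0.05, and the median was -0.18. Gata2, which holds back fat cell formation and is also a factor of blood and trophoblast, read 8.64 and 8.79 in embryoid bodies labelled Bmi1, compared with 7.01 and 7.57 in embryoid bodies with the vector. It rose with the block, by 1.43 ± 0.14 (SE, adjusted p = 0.0109, and 0.0921 without it). Dlk1, a membrane protein of preadipocytes, differed by -0.81 ± 0.32 (SE, adjusted p = 0.655) and Ebf1 by -1.03 ± 0.44 (SE, adjusted p = 0.714).

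Of 20 fat cell function genes with a probe set, 14 were above 0, with set medians of 0.08 and 0.05. Of the 20, 12 were tested, 0 passed without the block, 1 had an unadjusted p under 0.05, and the median was 0.05. On each array 9 to 13 of the 20 were above the array median. The 7 genes Adipoq, Lep, Plin4, Cidec, Pck1, Ucp1 and Aqp7 were above it on no array. Slc2a4 was above it on 7 arrays and Retn on 6, and these were named after their values were seen. Adipoq, the hormone made by fat cells, read 3.68 and 3.12 in embryoid bodies labelled Bmi1, compared with 3.40 and 3.02 in embryoid bodies with the vector. The summed linear signal of the 20 was 4455 and 4803 in embryoid bodies labelled Bmi1, compared with 3592 and 4302 in embryoid bodies with the vector. Scd1, the desaturase that makes monounsaturated fatty acids, read 9.43 and 9.05 in embryoid bodies labelled Bmi1, compared with 8.11 and 7.64 in embryoid bodies with the vector, and rose with the block by 1.37 ± 0.20 (SE, adjusted p = 0.032, and 0.195 without it). The lipase Pnpla2 and the triglyceride enzyme Dgat2 differed by 0.38 ± 0.18 and 0.45 ± 0.22 (SE), with adjusted p of 0.747 and 0.749.

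Among 18 genes of fatty acid oxidation and other receptor targets 15 were tested and 0 passed with or without the block, with 2 at an unadjusted p under 0.05 and a median of 0.15. Ehhadh, a peroxisomal enzyme, differed by 0.66 ± 0.24, Acadl, a mitochondrial dehydrogenase, by 0.44 ± 0.21 and Pex11a, a peroxisome membrane protein, by 0.43 ± 0.16 (SE), with adjusted p of 0.593, 0.744 and 0.62. Angptl4, a secreted inhibitor of Lpl and a receptor target, read 7.71 and 7.04 in embryoid bodies labelled Bmi1, compared with 8.56 and 7.17 in embryoid bodies with the vector. It was named after its value was seen.

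Other lipid uptake and scavenger genes leaned downwards as a list, with some genes higher. The median was -0.44 in the replicate 1 set and -0.03 in the replicate 2 set. Of 23 with a probe set 22 were tested, 0 passed without the block, 7 (31.8%) had an unadjusted p under 0.05, beside 7.1% of all genes, and the median was -0.21, with 5 above 0. With the block 3 passed, beside 2.09% of all genes. Both counts include Fabp7, which is described below with no test. With the block Lrp8, a receptor for apolipoprotein E, rose by 1.73 ± 0.17 (SE, adjusted p = 0.0114) and Lipg, the endothelial lipase, by 1.61 ± 0.14 (SE, adjusted p = 0.00769). Without the block the adjusted p of Lrp8 and Lipg was 0.131 and 0.113. Fabp7, the brain-type fatty acid binding protein, differed by -1.89. Among all arrays Fabp7 was above the array median only on both vector embryoid body arrays and on embryoid body replicate 2 labelled Bmi1. It met the filter only with the group where it was high, so its difference is given with no test. Lrp8 read 8.07 and 8.38 in embryoid bodies labelled Bmi1, compared with 6.06 and 6.94 in embryoid bodies with the vector, and Lipg read 6.70 and 7.17, against 5.03 and 5.62, whereas Fabp7 read 5.63 and 6.82, against 7.56 and 8.67, and none of the 3 genes had groups that overlapped.

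The lipid droplet and cholesterol efflux lists had medians of -0.01 over 18 genes, of which 14 were tested, and 0.01 over 7 genes, all tested, and 0 genes of either passed with or without the block. Each list had 1 gene at an unadjusted p under 0.05. These were Mgll, the monoglyceride lipase, at 0.75 ± 0.17 (SE, adjusted p = 0.277) and Apoe, a lipoprotein component, at -1.13 ± 0.30 (SE, adjusted p = 0.352). Nr1h3, an oxysterol receptor, and Mylip, which targets lipoprotein receptors for breakdown, gave 0.23 ± 0.25 and -0.20 ± 0.35 (SE).

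**Figure D4:**
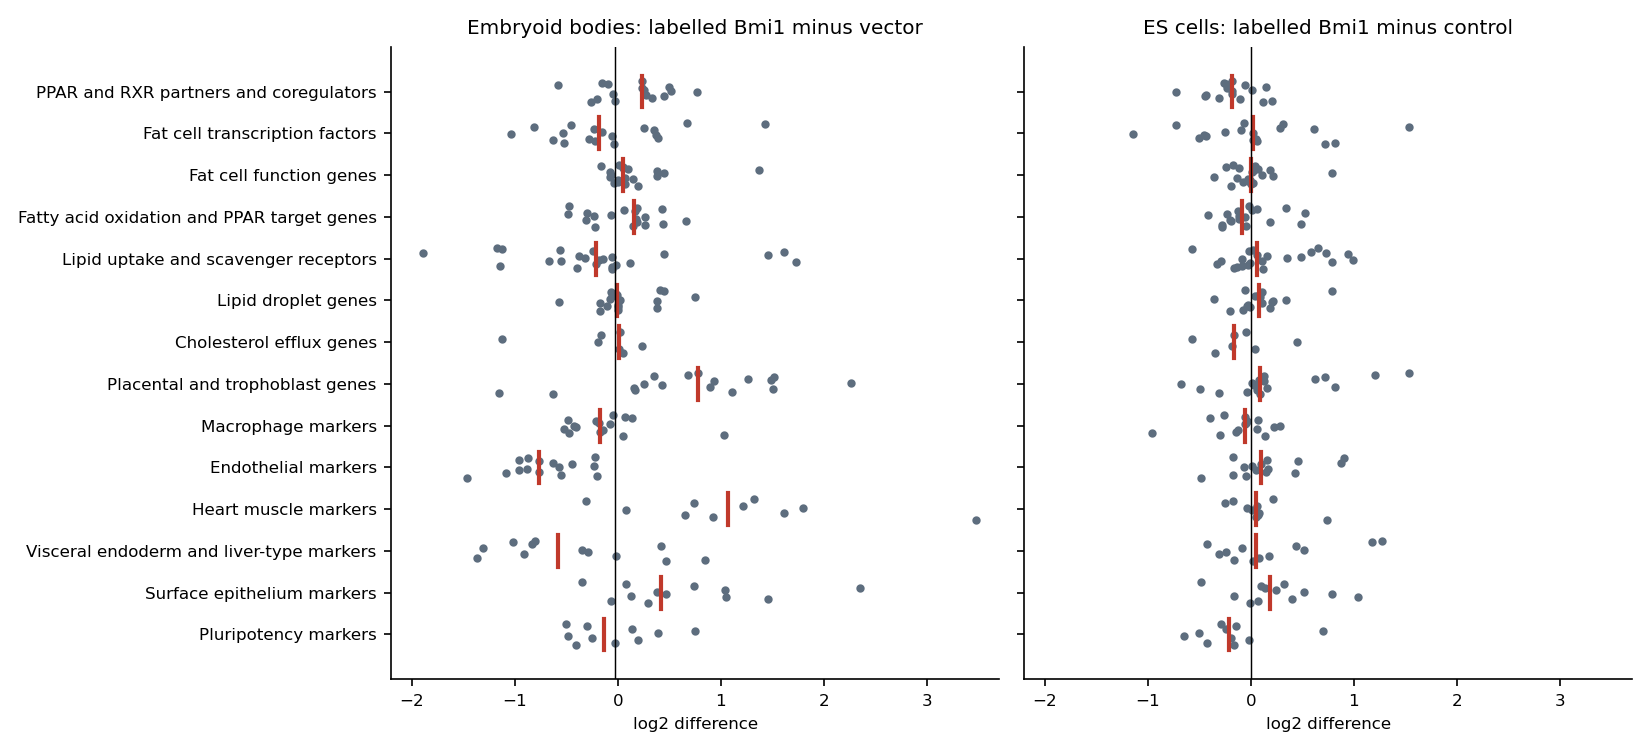
Log2 difference of every listed gene with a probe set, labelled Bmi1 minus vector in embryoid bodies (left) and labelled Bmi1 minus control in ES cells (right), 1 row a list. Red bars are list medians and the vertical line is the median of all genes, at -0.02 (left) and 0.00 (right). In embryoid bodies the placental and heart lists have medians of 0.78 and 1.07 and the endothelial list -0.76, whereas the fat cell function and droplet lists sit at 0.05 and -0.01.

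Placental genes leaned upwards in embryoid bodies labelled Bmi1, more so in the replicate 1 set. Of 17 with a probe set, 15 were above 0, the median was 0.78, and it was 0.95 in the replicate 1 set and 0.34 in the replicate 2 set. Of the 15 tested, 0 passed without the block and 7 had an unadjusted p under 0.05, beside 7.1% of all genes. The 7 include Ctsq, which entered the test only through the arrays where it was high. Plac1, a membrane protein of the placenta, read 10.07 and 9.26 in embryoid bodies labelled Bmi1, compared with 8.24 and 8.12 in embryoid bodies with the vector. It rose with the block by 1.49 ± 0.17 (SE, adjusted p = 0.0174, and 0.145 without it). Peg10, an imprinted gene needed for the placenta, rose with the block by 1.26 ± 0.17 (SE, adjusted p = 0.0265, and 0.335 without it).

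Phlda2, an imprinted gene that limits placental growth, differed by 1.51 ± 0.32 (SE, adjusted p = 0.206). Ctsq, a cathepsin of the rodent placenta, read 6.41 and 6.76 in embryoid bodies labelled Bmi1, compared with 5.81 and 5.49 in embryoid bodies with the vector. Ctsq was above the array median only on the arrays where it was high, so its difference of 0.94 is given with no test. Not every trophoblast gene went the same way. Cdx2 and Eomes, factors of trophoblast stem cells that also mark early mesoderm and hindgut, differed by -0.63 and -1.16 with overlapping groups and were named after their values were seen. The summed linear signal of the 17 was 15837 and 16203 in embryoid bodies labelled Bmi1, 5345 and 13083 in vector embryoid bodies, and 4226 to 7011 in ES cells. In embryoid bodies this sum is mostly that of Phlda2 and of the keratins Krt8 and Krt18, named after their values were seen. Phlda2 read 12.24 and 11.76 in embryoid bodies labelled Bmi1, and also 12.24 and 12.04 in ES cells labelled Bmi1. The sum is therefore no measure of the list as a whole. Whether placental cells account for the Pparg or Olr1 signal was not tested.

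Markers of other cell types also differed in this comparison. Of 15 endothelial markers 0 were above 0 and the median was -0.76, and 0 of 14 tested passed without the block, 10 (71.4%) had an unadjusted p under 0.05, beside 7.1% of all genes, and 4 fell with the block, beside 2.09% of all genes, namely Pecam1 at -1.47, Tek at -1.09, Emcn at -0.96 and Sox18 at -0.88 (adjusted p = 0.0304 to 0.0454 with the block). Their summed linear signal was 2612 and 2642 in embryoid bodies labelled Bmi1, compared with 4539 and 4067 in embryoid bodies with the vector. Among 10 heart muscle markers the median was 1.07, with 1.59 in the replicate 1 set and 0.33 in the replicate 2 set. Pln, a regulator of the calcium pump, differed by 1.80. It was above the array median only on both embryoid body arrays labelled Bmi1 and on vector replicate 2. Pln met the filter only with the group where it was high, so its difference is given with no test. Myh6 and Tnni3 rose with the block by 3.47 and 1.32 (adjusted p = 0.0468 and 0.0281). Within the sets Myh6 differed by 4.85 and 2.10. The heart list summed to 5725 and 6981 in embryoid bodies labelled Bmi1, compared with 1034 and 4648 in embryoid bodies with the vector.

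Of 12 surface epithelium markers 10 were above 0, and the list median was 0.42. Dmkn, a secreted protein of the epidermis, read 6.76 and 6.84 in embryoid bodies labelled Bmi1, compared with 4.04 and 4.85 in embryoid bodies with the vector. It was above the array median only on the arrays where it was high, so its difference of 2.35 is given with no test. The keratin Krt7 and the cadherin Cdh1 differed by 1.46 ± 0.47 and 1.04 ± 0.46 (SE, adjusted p = 0.513 and 0.73). Of 12 visceral endoderm and liver-type markers the median was -0.58, with -0.07 and -0.68 within the sets, and 3 were above 0 (Afp at 0.47, Alb at 0.84 and Foxa2 at 0.42, named after their values were seen). They summed to 7487 and 4862 in embryoid bodies labelled Bmi1, compared with 5517 and 7411 in embryoid bodies with the vector. Sox17 fell with the block by 0.83 ± 0.13 (SE, adjusted p = 0.0375), and Dab2 and Ttr differed by -0.81 ± 0.20 and -0.91 ± 0.30 (SE, adjusted p = 0.315 and 0.513). Among 15 macrophage and 10 pluripotency markers 0 passed with or without the block and 0 had an unadjusted p under 0.05 without it. Both lists turned between the sets, with medians of -1.001 and 0.82 for macrophage markers and 0.34 and -0.60 for pluripotency markers in the replicate 1 and replicate 2 sets. What part these cell types have in the Pparg and Olr1 signals was not tested.

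In ES cells 0 genes of any list passed limma's test without the block, beside 0.0462% of all genes. At an unadjusted p under 0.05 there were 0 to 3 genes a list, beside 6.3% of all genes. These counts include Ebf1, which is described below with no test. List medians ran from -0.21 for pluripotency markers to 0.19 for surface epithelium markers. With the block Sox18 rose by 0.91 ± 0.15 (SE, adjusted p = 0.0463), and Dab2, an endocytic adaptor of lipoprotein receptors, rose by 1.27 ± 0.16 (SE, adjusted p = 0.0292). Beside these calls stand 1.66% of all genes that passed with the block. Ebf1 differed by -1.14. It was above the array median only on both control ES cell arrays and on vector embryoid body replicate 2. Ebf1 met the filter only with the group where it was high, so its difference is given with no test. Dlk1 differed by 1.54 ± 0.32 (SE, adjusted p = 0.214), Dgat2 by 0.79 ± 0.22 (SE, adjusted p = 0.414) and Ppargc1b by -0.73 ± 0.20 (SE, adjusted p = 0.395). Fabp5, the epidermal fatty acid binding protein, read 13.47 and 13.08 in ES cells labelled Bmi1, against 12.57 and 12.09 in control ES cells, a difference of 0.94 ± 0.32 (SE, adjusted p = 0.585). Among the 8 receptor, fat, lipid and placental lists no median was past 0.2 in either direction.

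The genes whose signal over the 8 arrays was most like that of Pparg were Cldn23, a tight junction protein, Oasl2, an interferon-induced gene, Chdh, a choline dehydrogenase of mitochondria, Mbnl3, a splicing factor, and Lgals9, a galectin. The measure was the root mean square difference after each gene was centred on its own mean, and it was 0.21 to 0.34 for these 5, beside a median of 2.04 over all genes. For the members it was 0.49 for Olr1, 1.20 for Plin2, 1.33 for Lpl, 1.62 for Cebpa, 1.86 for Rxra, 2.14 for Ppard and 2.49 for Ppara. Cldn23 read 7.64 and 7.87 in embryoid bodies labelled Bmi1, compared with 5.19 and 6.02 in embryoid bodies with the vector, and 2.83 to 3.17 in ES cells. Olr1 stood closest to Pparg among the members, but both were picked for the same difference, which is part of this measure. The 3 other receptors stood about as far as a typical gene.

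For Olr1 the most similar were Pln, Isg20, an interferon-induced exonuclease, Rgcc, a cell cycle regulator, Lgals9 and Arhgef6, an exchange factor for small GTPases, at 0.18 to 0.27, beside a median of 1.60. Pln read 7.69 and 7.82 in embryoid bodies labelled Bmi1, compared with 5.90 and 6.02 in embryoid bodies with the vector, and 4.30 to 4.59 in ES cells. Lgals9 was the one gene on both lists, and it read 8.92 and 9.34 in embryoid bodies labelled Bmi1, compared with 7.26 and 7.61 in embryoid bodies with the vector. The 8 arrays fall into few distinct states, so such likeness rests mainly on the step between stages and the step between the embryoid body groups.

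**Figure D5:**
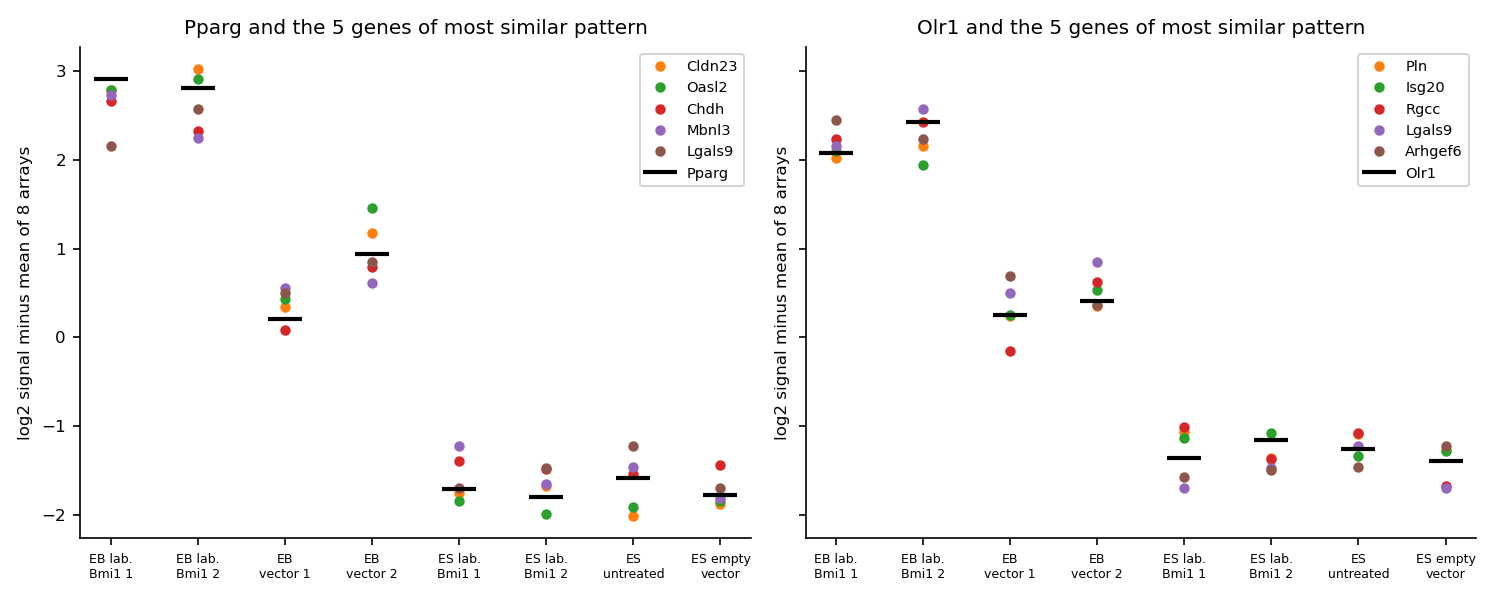
Log2 signal minus the gene's own mean over the 8 arrays, for Pparg (left) and Olr1 (right) as black bars and for the 5 genes most like each as coloured points. From left to right stand embryoid bodies labelled Bmi1, those with the vector, ES cells labelled Bmi1 and their controls. All 12 traces are highest in embryoid bodies labelled Bmi1, intermediate in vector embryoid bodies and lowest in ES cells.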

How the data were processed

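Expression was measured on 8 Affymetrix arrays, 1 a sample. The deposited values are log2 signals made by the authors with RMA, per the submitters' processing notes, and in which runs is not stated in the sources used here. Biotin-labelled RNA was made from 1 microgram of total RNA, per the labels. After 64 array controls were set aside, 45037 probe sets remained, of which 34945 had 1 gene symbol, 932 several and 9160 none in the platform annotation. A current gene table changed 0 symbols and had no match for 204. A gene was read from its brightest one-symbol probe set over the 8 arrays, and its other probe sets were read on their own. Genes above the array's median on at least 2 arrays were tested, 12982 of 18193, and 8 of the 10 members were among them.

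One model with 4 group means, fitted over the 8 arrays in R 4.3.3 by lmFit and eBayes of limma 3.58.1, left 4 residual degrees of freedom. Two-sided p-values were adjusted over all genes tested (Benjamini-Hochberg), with a threshold of 0.05. Fabp4 and Cd36 took their differences from the fit without the filter. The procedure was tested on simulated data. A replicate block for the embryoid body set left 3 residual degrees of freedom. To check whether replicate numbers pair the arrays, deviations from group means were correlated. The r was 0.721 for the replicate 1 arrays of embryoid bodies with each other, and 0.027 and 0.038 for each of them with replicate 1 of ES cells, so the numbers were taken as array sets in embryoid bodies only.

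The 10 members, the 14 gene lists and the tests were chosen with earlier results of these data known. Genes named were the members, up to 3 genes of each list with the smallest p in embryoid bodies and up to 2 in ES cells, any listed gene that passed, and the 5 genes most like Pparg and Olr1. Of 222 listed genes 201 had a one-symbol probe set. Alternatives were the filter, the summary of probe sets, the normalization, the prior, array weights, the arrays used, the block and leaving out each array.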

Additional observations from a re-analysis of the deposited data

How the results depend on the processing

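Each group has 2 arrays, and Fabp4 and Cd36, below the median on all 8, were not tested for lack of signal over background. Of the 8 partners 0 passed in embryoid bodies under every alternative run, including those without 1 array (0 to 0) and with the replicate block (0), and the difference between stages likewise gave 0. In ES cells 1 member passed with array weights and 1 with the replicate block, and 0 without any 1 array. With Ppara counted, 4 members passed in vector embryoid bodies against control ES cells and 3 in the pair labelled Bmi1. In the vector and control pair the count was 2 with the 75th percentile filter, where fewer genes are tested, 2 with probe sets of a gene averaged and 2 with the untreated array as only control, and without 1 array it was 2 to 4. In the pair labelled Bmi1 it was 1 with the 75th percentile filter and 1 with the mean of probe sets, and without 1 array 2 to 4. The replicate block moved the Cebpa and Lpl stage calls given above and no other partner's call but that of Plin2. Differences near 0 turned sign in ES cells. Pparg gave 0.030 with the empty vector array as only control. Ppara gave 0.011 with quantile normalization, 0.014 with median centring and 0.035 with the untreated array as only control. Ppard gave 0.078 and Rxra -0.039 with the untreated array, and Rxra -0.052 with the mean of probe sets. Rxra gave -0.22 and -0.24 between stages with median centring. The cause was not tested. Without 1 array the embryoid body difference ran from -0.021 to 0.31 for Ppara, -0.12 to 0.067 for Ppard, -0.071 to 0.14 for Rxra, -0.70 to 1.06 for Lpl and -0.32 to 0.072 for Plin2. In ES cells it ran from -0.17 to 0.030 for Pparg, -0.035 to 0.035 for Ppara, -0.23 to 0.078 for Ppard, -0.039 to 0.11 for Rxra and -0.038 to 0.17 for Olr1. Between stages it ran from -0.0034 to 0.21 for Rxra in vector and control samples and from -0.0034 to 0.91 for Cebpa in those labelled Bmi1. Pparg in embryoid bodies ran from 1.92 to 2.65 and Olr1 from 1.75 to 2.10. Over all genes the number passing depended on the fit. In embryoid bodies it was 18, and 271 with the block, 2 with the 75th percentile filter, 6 with median centring, 3 with a trended robust prior, 0 with array weights or embryoid body arrays alone, 2 with a block over the 6 numbered arrays, and 0 to 218 without 1 array, the highest without vector replicate 2. In ES cells it was 6, and 216 with the block, 641 with array weights, 139 with ES cell arrays alone, 3 with the mean of probe sets, 4 with median centring or the trended prior, 0 with quantile normalization or 1 control array, and 0 to 50 without 1 array. No value was had from the arrays of the compared groups alone for the difference between stages, nor from the 6 numbered arrays for comparisons with control ES cells.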
